A study of Homo sapiens with 9 samples.

Results

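The genes described are the collagens and a set of matricellular and matrix-assembly proteins as expressed by Cal-27 cells. They were chosen by name: every gene whose symbol is COL, a number, A and a number, except COL17A1, together with 15 named matrix genes. Of the 16366 genes listed in the deposited table, 51 met this rule, 38 collagens and 13 others; BGN and THBS2 were not analysed here. Cal-27 is an established line of human tongue squamous carcinoma cells, labelled WT in all samples. Cells were exposed for 48 h to CAF exosomes, those of cancer-associated fibroblasts, for 48 h to exosomes labelled hOMF, an abbreviation that the labels spell in 2 ways and do not write out, or kept as a control labelled NC. Each of the 3 groups had 3 libraries, and the labels do not say whether these came from separate cultures, so p-values measure the spread between these libraries, which may be technical. The labels do not give the exosome dose, the donors of the fibroblasts or what the control cells received. The series title places the work in oral squamous cell carcinoma and the effect of exosomes of CAFs on it.

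Collagens are triple helices of chains that are hydroxylated in the endoplasmic reticulum, trimmed outside the cell and cross-linked. Fibrillar collagens and collagen VI of stroma come mainly from fibroblasts, whereas epithelial cells lay down chains of the basement membrane beneath them, such as those of collagen IV, VII and XVIII. Matricellular proteins such as SPARC, tenascin-C and thrombospondin-1 sit in the matrix and change how cells attach to it, and fibulins link elastic fibres and basement membranes.

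The libraries held 11185672 to 12779101 assigned reads as sums of the authors' expected counts. Below, levels are given as CPM, read counts scaled to a common library size with edgeR's TMM factors, or as the deposited FPKM, which also divides by transcript length; only FPKM was used to compare 1 gene with another. Changes are log2 fold changes fitted by edgeR to the 9 libraries together and tested by quasi-likelihood, genes were called where p, adjusted by Benjamini-Hochberg over the 12470 genes tested, was under 0.05, and every adjusted p below is of this test. The 13 markers of squamous carcinoma cells were all detected, at summed levels of 9019 to 10672 CPM in the 6 exosome libraries and 8131 to 10151 CPM in the 3 control libraries. Control replicate 3 stood apart: 142 genes had at least 20 reads there and at least 10 times the reads of every other library, against 0 or 1 such gene in each of the others. They included the granule protease gene ELANE, with 647 reads against 0 to 3 elsewhere, and the pan-leukocyte gene PTPRC, with 94 reads against 0 or 1, and made up 0.121% of that library's reads. COL23A1 was the 1 member among these genes. Control replicate 3 also held the lowest control level of several members, so values without it are given beside the results that rest on it.

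Of the 51 genes, 30 had enough reads to be tested and 21 did not. In 29 of the 30, all 3 control libraries lay above the cutoff of the filter, 0.874 CPM, and the exception was FBN1. By mean FPKM over the 9 libraries, the most abundant member was SPARC, a secreted protein that binds collagen, at 199. Next came TNC, the adhesion-modulating tenascin-C, at 127 FPKM, and FBLN1, a fibulin of basement membranes and elastic fibres, at 83.8 FPKM. Among the abundant collagen chains were 3 of the basement membrane zone: COL4A2 at 51.8 FPKM, COL18A1, the source of endostatin, at 35.5 FPKM, and COL7A1, the anchoring fibril chain of stratified epithelia, at 28.7 FPKM. COL5A1 at 29.7 FPKM and COL27A1 at 27.9 FPKM were the leading fibrillar chains. COL1A1, the main chain of collagen I, averaged 7.87 FPKM, and its partner COL1A2 averaged 0.514 FPKM. The plot of FPKM by gene shows this order.

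**Figure D1:**
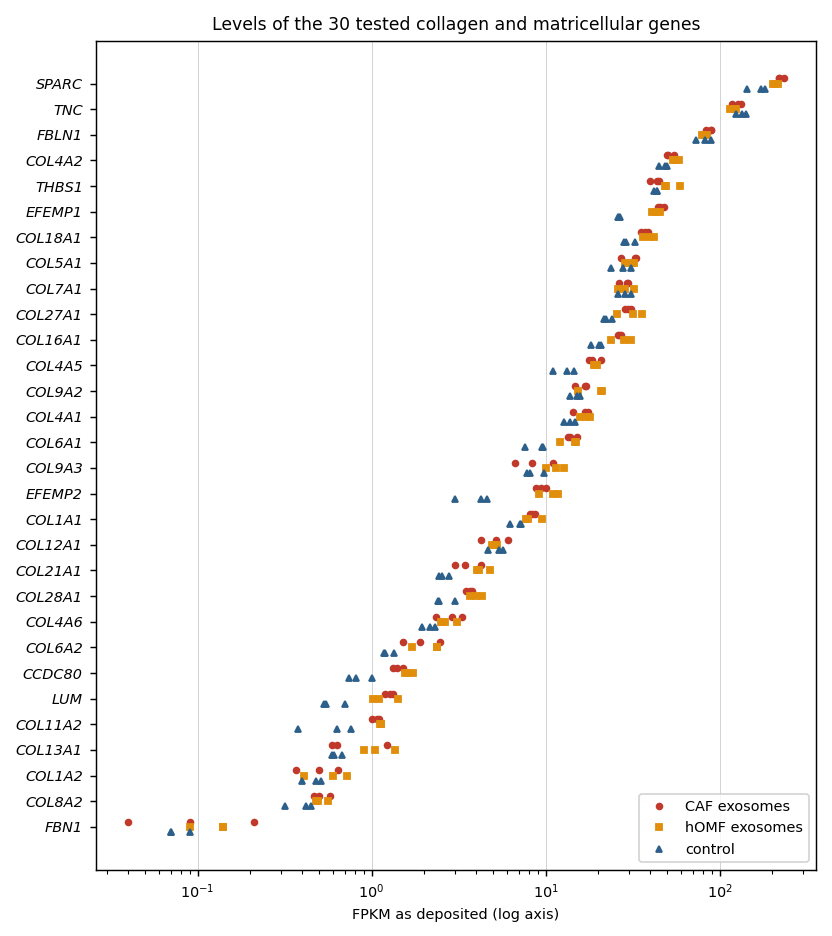
Deposited FPKM (log axis) of the 30 tested members, 1 point per library, with CAF exosome, hOMF exosome and control libraries in separate colours and the genes ordered by their mean. SPARC and TNC lie at the top with means of 199 and 127 FPKM and FBN1 at the bottom, and the control points of EFEMP1 and EFEMP2 lie left of all exosome points.

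Chains that share a trimer were not equally abundant. The ratio of COL1A1 to COL1A2 FPKM lay between 10.7 and 23.4 in the 9 libraries, with a median of 16.0. COL5A1 exceeded COL5A2 in FPKM by 196 to 519 times, with COL5A2 at 4 to 10 reads per library. Within collagen VI, a beaded filament of COL6A1, COL6A2 and another chain such as COL6A3, the ratio of COL6A1 to COL6A2 FPKM was 6.15 to 9.15, and COL6A3 had 0 to 3 reads. The ratio of COL4A2 to COL4A1 FPKM was 2.96 to 3.83, and that of COL4A5 to COL4A6 was 5.67 to 7.83. In each of these 5 pairs the ranges of the ratio in exosome and control libraries overlapped. COL4A3 and COL4A4, the other collagen IV pair, were at 0 to 2 reads.

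Most transcripts that define fibroblasts were near the limit of detection in every group. Of 10 fibroblast-defining markers with little known expression in carcinoma cells, 7 had a combined 2, 4 and 4 reads in the CAF exosome libraries, 2, 1 and 5 reads in the hOMF exosome libraries and 4, 1 and 6 reads in the control libraries. These 7 were COL3A1, the second fibrillar collagen of stroma, COL6A3, the proteoglycan gene DCN, the matricellular gene POSTN, and FAP, THY1 and PRRX1. COL3A1 had no read in any CAF exosome or control library and 1 read in each of 2 hOMF exosome libraries. A sum of 0 reads over the 3 libraries of a group allows up to 3 reads, or 0.0858 CPM in CAF exosome cultures and 0.0851 CPM in control cultures, by counting error only. POSTN had 1 read in all 9 libraries together. DCN had 1, 0 and 0 reads in the CAF exosome libraries, none in the hOMF exosome libraries and 0, 0 and 2 in the control libraries.

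The remaining defining markers were COL1A2, LUM and PDGFRB, the receptor of platelet-derived growth factor B. COL1A2 had 27, 21 and 37 reads in CAF exosome cultures, 33, 22 and 44 reads in hOMF exosome cultures and 26, 22 and 31 reads in control cultures. The groups overlapped and neither exosome group was called. PDGFRB had a log2 fold change of 0.62 with CAF exosomes and 0.70 with hOMF exosomes, and was called in neither. LUM, which encodes the fibril-binding proteoglycan lumican, had 32, 37 and 37 reads in CAF exosome cultures, 28, 38 and 34 reads in hOMF exosome cultures and 15, 19 and 16 reads in control cultures, and all 6 exosome libraries lay above all 3 control libraries. Summed over the 10 defining markers, the level was 6.60, 6.30 and 7.93 CPM with CAF exosomes, 6.77, 6.30 and 7.87 CPM with hOMF exosomes and 4.82, 4.43 and 5.18 CPM in control cultures. The wider list of 27 fibroblast markers, of which 15 were tested, held 5 genes called higher and 1 called lower in each exosome group, beside 9.51% higher and 8.64% lower of all genes with CAF exosomes and 11.8% and 11.4% with hOMF exosomes. Without control replicate 3 it held 4 higher and none lower with CAF exosomes, and 4 higher and 1 lower with hOMF exosomes. In that fit 5.91% of all genes were higher and 5.58% lower with CAF exosomes, and 7.94% and 8.10% with hOMF exosomes. The gene called lower was S100A4, a calcium-binding protein, with an adjusted p of 0.0379 with CAF exosomes, and of 0.159 without that library. The list's summed level was 1341 ± 42.9 CPM with CAF exosomes, 1257 ± 57.5 CPM with hOMF exosomes and 1122 ± 109.8 CPM in control cultures (SD, n = 3 each). Without SPARC, which makes up much of it, the sum was 628 ± 28.7 CPM with CAF exosomes and 607 ± 34.9 CPM with hOMF exosomes. In control cultures it was 583 ± 38.2 CPM, and the ranges overlapped. In deposited FPKM the sum without SPARC was 225 ± 4.93 with CAF exosomes, 218 ± 11.3 with hOMF exosomes and 230 ± 9.62 in control cultures. In deposited TPM it was 336 ± 11.8, 325 ± 7.97 and 335 ± 14.3 in the same order. On these 2 scales the exosome groups did not both average above control cultures. VIM, which is on the list, had 478 reads in control replicate 3 and 3 to 7 reads in every other library. The sums without SPARC in control replicates 1 and 2 were 615 and 594 CPM. Of the members on this list, SPARC, LUM, COL6A1 and COL6A2 were called higher in both exosome groups, and COL1A1, COL1A2, COL5A1, FBLN1 and FBN1 in neither. ACTA2, which is on the list but not a member, was called higher in both, with and without control replicate 3. Reads from RNA carried by exosomes and reads from RNA made by the Cal-27 cells cannot be told apart in these libraries, and neither can fewer cells of a type and less RNA per cell.

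**Figure D2:**
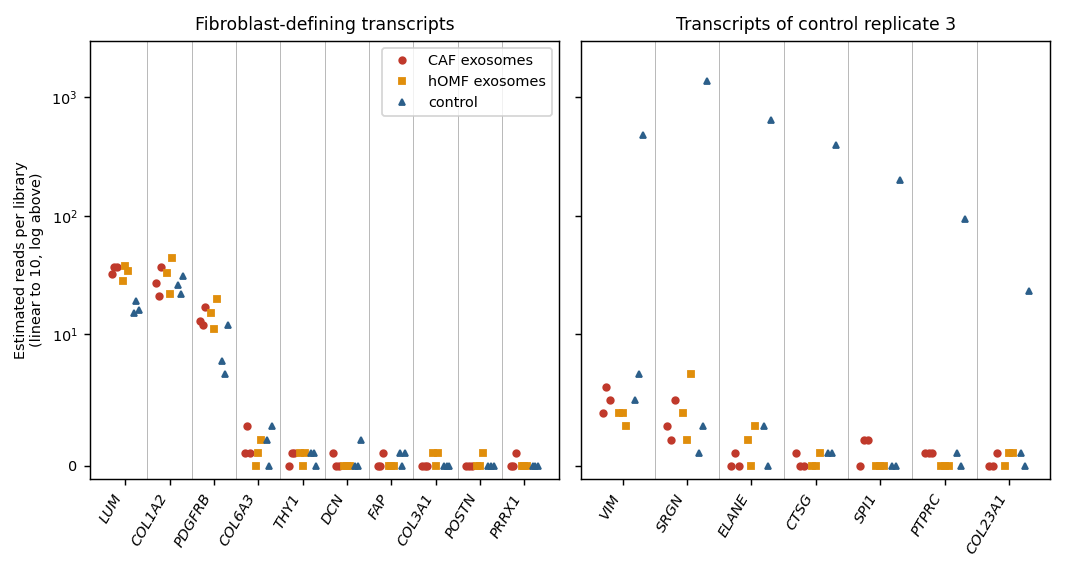
Reads per library (linear up to 10, log above) of the 10 fibroblast-defining markers on the left and of transcripts abundant in control replicate 3 on the right, 1 point per library. Only LUM, COL1A2 and PDGFRB exceed a few reads on the left; on the right control replicate 3 has 647 ELANE reads and 23 COL23A1 reads while the other 8 libraries have 0 to 3 and 0 or 1.

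COL23A1, a transmembrane collagen chosen for mention after its values were seen, had 0, 0 and 1 reads with CAF exosomes, 0, 1 and 1 reads with hOMF exosomes and 1, 0 and 23 reads in control cultures, so the 1 library with more than a single read was control replicate 3. COL5A2 had 6, 7 and 5 reads with CAF exosomes, 8, 10 and 9 reads with hOMF exosomes and 4, 7 and 6 reads in control cultures. VCAN, a large proteoglycan, had 1, 5 and 1 reads with CAF exosomes, 3, 1 and 2 reads with hOMF exosomes and 1, 0 and 1 reads in control cultures. The other untested members had at most 6 reads in any library, and none of the 21 passed the filter. Fitted without the filter on low counts, all 21 were tested and 0 of them called.

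Against control cultures, 12 of the 30 tested members were higher with CAF exosomes and none was lower. Across all 12470 genes the shares called were 9.51% higher and 8.64% lower, 18.2% in all. The median log2 fold change of the 30 members was 0.30, beside -0.01 over all tested genes. An unadjusted p under 0.05 was found for 17 of them, beside 4094 of all 12470 genes. With hOMF exosomes 14 members were higher and TNC was lower, while 11.8% of all genes were higher and 11.4% lower, 23.2% in all. Their median was 0.32, beside 0.00 over all genes, and 23 had an unadjusted p under 0.05, beside 4575 of all 12470 genes. The members higher with CAF exosomes were EFEMP1, EFEMP2, LUM, CCDC80, SPARC, COL6A1, COL6A2, COL4A5, COL18A1, COL16A1, COL28A1 and COL11A2. With hOMF exosomes these 12 were called as well, together with COL21A1 and COL27A1. Both comparisons share the 3 control libraries, so the second list is no independent repeat of the first.

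In all libraries of a group, 15 of the 30 members lay above every control library with CAF exosomes and none below, and 21 lay above and 1 below with hOMF exosomes. Over all 12470 genes 18% lay above and 18.2% below in this way with CAF exosomes, and 20.2% above and 19.3% below with hOMF exosomes. COL27A1 was called with hOMF exosomes although 1 of its libraries lay within the control range. Leaving out control replicate 3 reduced the count to 7 higher with CAF exosomes and to 12 higher and 1 lower with hOMF exosomes. The share of all genes called was then 11.5% with CAF exosomes (5.91% higher, 5.58% lower) and 16.0% with hOMF exosomes (7.94% higher, 8.10% lower). The calls of all genes thus fell in number as well. The CAF exosome count was also 7 when either CAF exosome replicate 3 or control replicate 1 was left out, and 8 when CAF exosome replicate 1 was. Of all genes 6.35%, 8.65% and 7.00% were higher in these fits, in the same order. Of the collagens, 7 of 21 tested were called higher with CAF exosomes and 2 without control replicate 3, COL6A1 and COL4A5. With hOMF exosomes 9 collagens were called higher, and 8 without that library. Of the other members, 5 of 9 were called higher with CAF exosomes, with and without that library. With hOMF exosomes 5 of these were called higher, and 4 without it. Scaling by library totals in place of TMM moved the split of all calls to 63.1% higher, against 52.4%, for CAF exosomes and to 67.0%, against 50.9%, for hOMF exosomes, and the member counts to 13 and 18 higher, beside 11.4% and 16.1% of all genes.

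**Figure D3:**
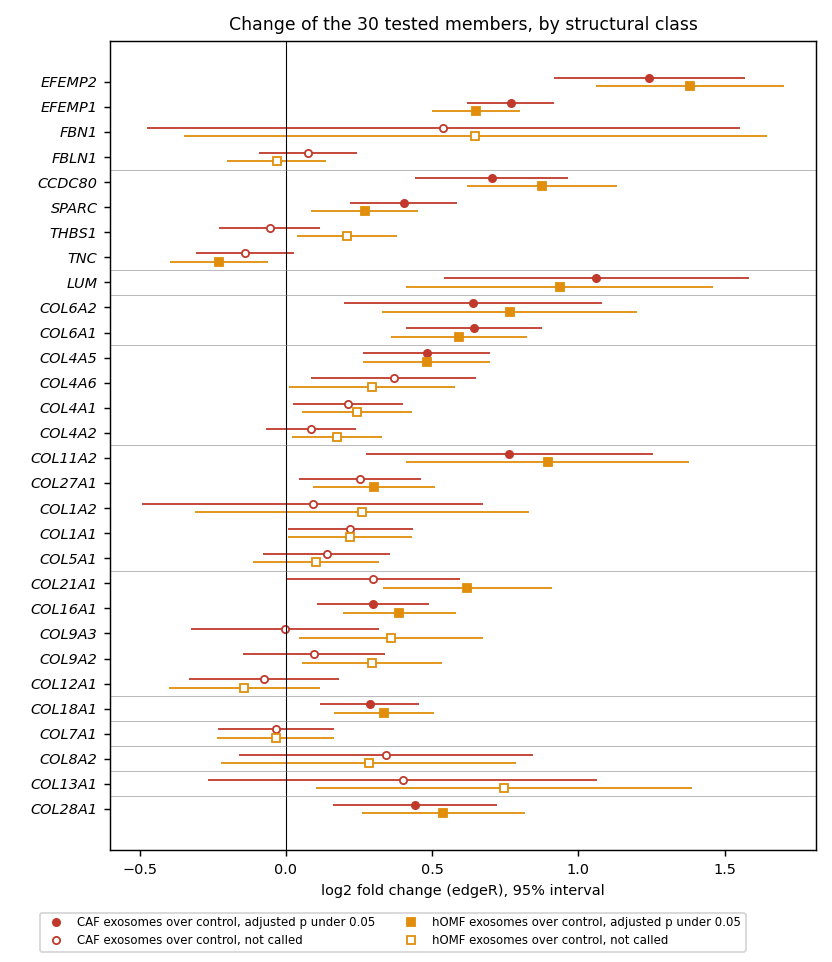
Log2 fold change of the 30 tested members over control with 95% intervals, CAF exosomes above hOMF exosomes for each gene; filled points have an adjusted p under 0.05 and lines separate structural classes. The largest called values belong to EFEMP2 (1.24 and 1.38) and LUM (1.06 and 0.94), and TNC is the 1 filled point left of 0.

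The largest called change was that of EFEMP2, the gene of fibulin-4, which brings lysyl oxidase to elastin (chr11:65866441-65873592, GRCh38, minus strand). It had 15.7, 14.6 and 16.9 CPM in CAF exosome cultures, 19.3, 17.9 and 14.8 CPM in hOMF exosome cultures and 7.82, 7.23 and 5.02 CPM in control cultures. Every exosome library lay well above every control library, the lowest exosome value being 14.6 CPM and the highest control value 7.82 CPM. The log2 fold change over control was 1.24 ± 0.15 (SE) with CAF exosomes and 1.38 ± 0.15 with hOMF exosomes (adjusted p = 0.000121 and 2.72e-05). Without control replicate 3 both calls held, with adjusted p of 0.000446 with CAF exosomes and 8.33e-05 with hOMF exosomes. An exon of MUS81, a DNA repair nuclease gene, overlaps EFEMP2 on the opposite strand, and the sources used here do not say whether reads were counted by strand, although the library kit marks strand. MUS81 had a log2 fold change of 0.12 with CAF exosomes and 0.09 with hOMF exosomes and was not called. Exons of SPARC, COL16A1, COL18A1 and TNC, members also called, likewise overlap those of a gene on the opposite strand.

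The promoter of EFEMP2 is shown because its gene had the largest change. It is the RefSeq window from 250 bases before to 50 after the start of the transcript, chr11:65872751-65873050 in GRCh38.p14, minus strand, with each GC box (GGGCGG on either strand) in capitals.
EFEMP2: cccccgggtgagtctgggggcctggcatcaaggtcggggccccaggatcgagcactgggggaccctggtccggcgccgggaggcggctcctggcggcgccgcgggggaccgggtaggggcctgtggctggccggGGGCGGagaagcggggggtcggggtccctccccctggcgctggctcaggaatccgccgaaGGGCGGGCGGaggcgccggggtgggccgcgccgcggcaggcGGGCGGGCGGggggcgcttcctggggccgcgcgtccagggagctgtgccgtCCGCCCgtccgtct
It holds 6 GC boxes, some of them overlapping, and neither TATAAA nor CCAAT.

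EFEMP1, the gene of fibulin-3, a secreted relative of fibulin-4, had 109.7, 116 and 108 CPM in CAF exosome cultures, 103, 96.5 and 107 CPM in hOMF exosome cultures and 66.7, 65.6 and 63.3 CPM in control cultures. The control libraries were close together, from 63.3 to 66.7 CPM, and all exosome libraries were above them. Over control it had a log2 fold change of 0.77 ± 0.07 (SE) with CAF exosomes and 0.65 ± 0.07 with hOMF exosomes (adjusted p = 1.33e-05 and 2.6e-05), and no alternative ended either call. The remaining fibulin and the fibrillin were not called. FBLN1 had 182, 193 and 193 CPM in CAF exosome cultures, 184, 176 and 168 CPM in hOMF exosome cultures and 182, 197 and 159 CPM in control cultures, with overlapping groups and log2 fold changes of 0.08 and -0.03 (adjusted p = 0.535 and 0.812). FBN1, the microfibril gene fibrillin-1, had only 27, 5 and 12 reads in CAF exosome cultures, 18, 18 and 13 reads in hOMF exosome cultures and 11, 9 and 10 reads in control cultures, with 95% intervals of the log2 fold change of -0.48 to 1.55 for CAF exosomes and -0.35 to 1.64 for hOMF exosomes.

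LUM had 2.85, 3.15 and 3.09 CPM in CAF exosome cultures, 2.43, 3.32 and 2.60 CPM in hOMF exosome cultures and 1.36, 1.72 and 1.28 CPM in control cultures, and no exosome library was as low as any control library. This was a log2 fold change of 1.06 ± 0.25 (SE) with CAF exosomes and 0.94 ± 0.25 with hOMF exosomes (adjusted p = 0.00805 and 0.013) from 15 to 38 reads per library. Both calls held without control replicate 3, at 0.97 (adjusted p = 0.0312) and 0.85 (adjusted p = 0.0471). The hOMF exosome call was lost without hOMF exosome replicate 2 and under DESeq2, with a highest adjusted p of 0.071.

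CCDC80, a secreted protein that binds matrix, had 18.2, 15.7 and 16.9 CPM in CAF exosome cultures, 20.6, 18.0 and 18.7 CPM in hOMF exosome cultures and 9.18, 12.4 and 9.65 CPM in control cultures. The exosome libraries ranged from 15.7 to 20.6 CPM and the control libraries from 9.18 to 12.4 CPM. The log2 changes were 0.70 ± 0.12 (SE) with CAF exosomes and 0.88 ± 0.12 with hOMF exosomes (adjusted p = 0.00138 and 0.000143), and both calls held under all 20 alternatives. SPARC had 739.9, 694 and 703 CPM in CAF exosome cultures, 680.2, 626 and 643 CPM in hOMF exosome cultures and 595, 564 and 458 CPM in control cultures. All exosome libraries were above all control libraries, but control replicate 3 lay far below the other controls. SPARC had a log2 fold change of 0.40 ± 0.09 (SE) with CAF exosomes and 0.27 ± 0.09 with hOMF exosomes (adjusted p = 0.00522 and 0.0334). Without control replicate 3 it was 0.30 (adjusted p = 0.0186) with CAF exosomes and 0.17 (adjusted p = 0.142) with hOMF exosomes, so the second call was lost; it was also lost when control replicate 2 or either of hOMF exosome replicates 1 and 2 was left out, with adjusted p up to 0.142.

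TNC moved the other way with hOMF exosomes. It had 928, 785 and 889.7 CPM in CAF exosome cultures, 837, 779 and 831 CPM in hOMF exosome cultures and 970.2, 1019.5 and 878 CPM in control cultures. All hOMF exosome libraries lay below all control libraries, and the CAF exosome libraries overlapped both groups. TNC had a log2 fold change of -0.14 ± 0.08 (SE) with CAF exosomes and -0.23 ± 0.08 with hOMF exosomes (adjusted p = 0.231 and 0.0468). The hOMF exosome call was lost in 10 of 20 alternatives, with adjusted p up to 0.183, among them the removal of CAF exosome replicate 3, of any 1 hOMF exosome library or of control replicate 1 or 2. THBS1, thrombospondin-1, which can activate latent TGF-beta, was chosen for mention after its values were seen and had 249, 251 and 229 CPM in CAF exosome cultures, 271, 272 and 331 CPM in hOMF exosome cultures and 256, 249 and 253 CPM in control cultures; it was called with neither (adjusted p = 0.669 with CAF exosomes and 0.0724 with hOMF exosomes), although 4 of 20 alternatives called it with hOMF exosomes (adjusted p down to 0.0305). Its hOMF exosome libraries were all above the control libraries and its CAF exosome libraries overlapped them. The plot of CPM by library shows EFEMP2, EFEMP1, LUM, CCDC80, SPARC and TNC, with COL6A1 and COL4A5, the collagen VI and IV chains of smallest adjusted p.

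**Figure D4:**
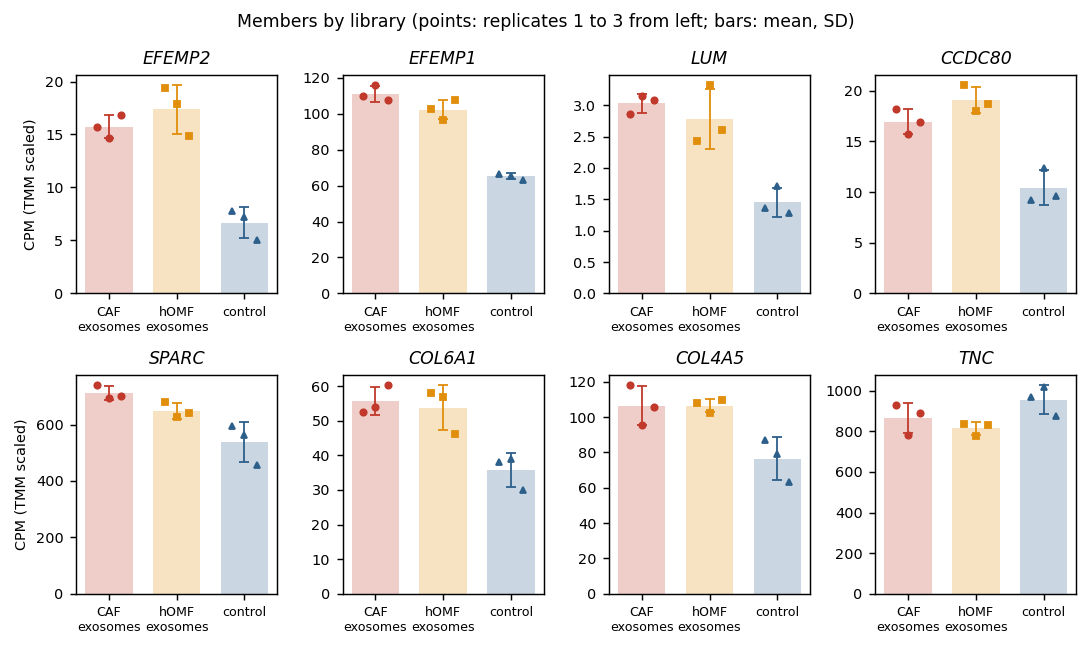
CPM of 8 members by library, with points for replicates 1 to 3 from left to right, bars for the group mean and error bars for the SD (n = 3 each). In 7 genes every exosome point lies above every control point; TNC has group means of 868, 816 and 956 CPM with CAF exosomes, hOMF exosomes and in control cultures.

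Both tested chains of collagen VI rose in both exosome groups. COL6A1 (chr21:45981737-46005050, GRCh38, plus strand) had 52.6, 54.0 and 60.3 CPM in CAF exosome cultures, 58.0, 57.0 and 46.2 CPM in hOMF exosome cultures and 38.2, 38.9 and 30.0 CPM in control cultures. The lowest exosome library was at 46.2 CPM and the highest control library at 38.9 CPM. Its log2 fold change was 0.64 ± 0.11 (SE) with CAF exosomes and 0.59 ± 0.11 with hOMF exosomes (adjusted p = 0.00115 and 0.00136), and it remained called under all 20 alternatives. COL6A2, its neighbour at chr21:46098097-46132849 on the same strand, had 5.80, 4.60 and 7.59 CPM in CAF exosome cultures, 7.29, 7.17 and 5.27 CPM in hOMF exosome cultures and 3.73, 4.25 and 3.59 CPM in control cultures. All exosome libraries were above all control libraries, the closest pair being 54 reads with CAF exosomes and 47 reads in control cultures. COL6A2 had a log2 fold change of 0.64 ± 0.21 (SE) with CAF exosomes and 0.77 ± 0.21 with hOMF exosomes (adjusted p = 0.0428 and 0.014). The COL6A2 call with CAF exosomes was lost in 12 of 20 alternatives, including the removal of any 1 control library, of hOMF exosome replicate 2 or of replicate 1 or 3 of the CAF exosome group, DESeq2 and the replicate block, with adjusted p up to 0.207. With hOMF exosomes it was lost without hOMF exosome replicate 1 or 2, with adjusted p up to 0.0607.

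Of the basement membrane chains, COL4A5 was called in both exosome groups and COL4A1, COL4A2 and COL4A6 in neither. COL4A5 (chrX:108439844-108697545, GRCh38, plus strand) had 118, 95.7 and 106 CPM in CAF exosome cultures, 108, 102 and 109 CPM in hOMF exosome cultures and 87.0, 78.9 and 63.3 CPM in control cultures. All exosome libraries were above all control libraries, of which control replicate 3 was the lowest. The fitted log2 changes were 0.48 ± 0.10 (SE) with CAF exosomes and 0.48 ± 0.10 with hOMF exosomes (adjusted p = 0.00508 and 0.00367). It was 0.36 (adjusted p = 0.021) with CAF exosomes and 0.36 (adjusted p = 0.0154) with hOMF exosomes without control replicate 3 and stayed called in each of the 20 alternatives. COL4A6, which is transcribed away from COL4A5 (chrX:108155607-108439497, minus strand), had 20.1, 14.3 and 17.9 CPM in CAF exosome cultures, 15.0, 15.7 and 18.7 CPM in hOMF exosome cultures and 13.7, 14.6 and 12.1 CPM in control cultures and log2 fold changes of 0.37 and 0.30 (adjusted p = 0.0653 and 0.12). Its 95% intervals, 0.09 to 0.65 with CAF exosomes and 0.01 to 0.58 with hOMF exosomes, include the COL4A5 value.

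COL4A1 (chr13:110148963-110307233, minus strand) had 106, 90.0 and 109.8 CPM in CAF exosome cultures, 105, 96.1 and 110.2 CPM in hOMF exosome cultures and 88.5, 95.0 and 80.2 CPM in control cultures. COL4A2 (chr13:110305812-110513209, plus strand) had 309, 309 and 339 CPM in CAF exosome cultures, 359.6, 327 and 332 CPM in hOMF exosome cultures and 283, 317 and 303 CPM in control cultures. In both genes the hOMF exosome libraries were all above the control libraries, and the CAF exosome libraries overlapped them. The log2 fold change of COL4A1 was 0.21 ± 0.09 (SE) with CAF exosomes and 0.24 ± 0.09 with hOMF exosomes (adjusted p = 0.108 and 0.0579). That of COL4A2 was 0.09 ± 0.07 (SE) with CAF exosomes and 0.18 ± 0.07 with hOMF exosomes (adjusted p = 0.434 and 0.0899). With hOMF exosomes COL4A1 was called in 6 of 20 alternatives (adjusted p down to 0.0133) and COL4A2 in 4 (down to 0.0266), scaling by library totals among them in both cases and the removal of CAF exosome replicate 2 for COL4A1. With CAF exosomes COL4A1 was called in 2 (down to 0.03) and COL4A6 in 3 (down to 0.0166), both without CAF exosome replicate 2 and under the GC and length correction, and COL4A2 in none.

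These 4 genes form 2 head-to-head pairs whose promoter windows overlap, so both chains of a pair share promoter sequence. The RefSeq windows in GRCh38.p14 are chr13:110307108-110307407 for COL4A1 (minus strand), chr13:110307034-110307333 for COL4A2 (plus strand), chrX:108439588-108439887 for COL4A5 (plus strand) and chrX:108439409-108439708 for COL4A6 (minus strand), and capitals mark CCAAT boxes (CCAAT or, on the other strand, ATTGG) and GC boxes (GGGCGG or CCGCCC).
COL4A1: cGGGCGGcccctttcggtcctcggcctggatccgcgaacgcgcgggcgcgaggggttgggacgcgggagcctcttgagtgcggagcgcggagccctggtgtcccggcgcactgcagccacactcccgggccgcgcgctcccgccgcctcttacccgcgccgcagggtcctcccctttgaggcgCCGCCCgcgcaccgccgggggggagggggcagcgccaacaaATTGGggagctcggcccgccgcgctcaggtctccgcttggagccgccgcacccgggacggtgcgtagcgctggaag
COL4A2: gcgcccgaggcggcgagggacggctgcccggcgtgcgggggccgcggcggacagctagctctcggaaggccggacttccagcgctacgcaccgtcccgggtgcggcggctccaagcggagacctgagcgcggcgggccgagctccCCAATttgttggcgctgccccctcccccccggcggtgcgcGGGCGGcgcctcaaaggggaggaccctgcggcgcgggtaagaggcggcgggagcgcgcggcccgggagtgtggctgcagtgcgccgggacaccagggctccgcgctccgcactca
COL4A5: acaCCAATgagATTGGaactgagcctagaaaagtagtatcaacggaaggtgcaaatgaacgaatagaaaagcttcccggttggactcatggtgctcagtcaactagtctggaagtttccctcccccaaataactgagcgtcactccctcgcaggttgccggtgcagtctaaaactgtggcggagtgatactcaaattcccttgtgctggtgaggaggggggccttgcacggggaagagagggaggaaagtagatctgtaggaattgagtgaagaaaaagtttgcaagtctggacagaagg
COL4A6: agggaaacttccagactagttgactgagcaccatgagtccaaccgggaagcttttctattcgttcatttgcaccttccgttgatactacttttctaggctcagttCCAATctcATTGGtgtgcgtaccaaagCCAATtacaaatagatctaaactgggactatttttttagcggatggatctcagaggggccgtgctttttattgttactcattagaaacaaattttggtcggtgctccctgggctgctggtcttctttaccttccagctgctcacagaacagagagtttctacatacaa
The COL4A1 and COL4A2 windows share 226 bases and their RefSeq starts lie 127 bases apart; the COL4A5 and COL4A6 windows share 121 bases with starts 380 bases apart. A CCAAT box and a GC box stand in the bases shared by COL4A1 and COL4A2, and the pair of CCAAT boxes at the start of the COL4A5 window is the same pair as the first in the COL4A6 window. The COL4A5 and COL4A6 windows hold no GC box.

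Over the 24 tested members with a window in the RefSeq table, GGGCGG on either strand was found in 16, beside 70.5% of the 10202 windows of tested genes and 44.6% of all 27305 windows. CCAAT on either strand was found in 6 of the 24 (36.6% of tested and 35.7% of all windows), in COL4A1, COL4A2, COL4A5, COL4A6, COL28A1 and THBS1. TATAAA was found in COL7A1, COL6A2 and COL13A1 (5.53% of tested and 12.0% of all windows). Neither TGANTCA, the AP-1 element, nor TCACNCCAC, the sterol regulatory element, was found in any of the 24; they stand in 4.52% and 1.01% of tested and 7.76% and 1.15% of all windows. A match is a description of these letters and not of a bound site. EFEMP1, LUM and COL6A1 had no entry.

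Among the fibrillar chains, COL11A2 was called in both exosome groups and COL27A1 with hOMF exosomes. COL11A2, a chain of cartilage collagen XI, had 4.82, 4.51 and 4.59 CPM in CAF exosome cultures, 6.33, 5.07 and 3.90 CPM in hOMF exosome cultures and 2.55, 3.52 and 2.15 CPM in control cultures. The exosome libraries were all above the control libraries. The log2 change was 0.76 ± 0.23 (SE) with CAF exosomes and 0.89 ± 0.23 with hOMF exosomes (adjusted p = 0.0317 and 0.0107) from 27 to 73 reads per library. The CAF exosome call was lost under DESeq2 and without control replicate 1 or 3 or any 1 CAF exosome library (adjusted p up to 0.113), and the hOMF exosome call without hOMF exosome replicate 1 (adjusted p = 0.0594). COL27A1, a fibrillar chain known from cartilage, had 180.3, 159.6 and 177 CPM in CAF exosome cultures, 207, 178 and 150.3 CPM in hOMF exosome cultures and 137, 156 and 141 CPM in control cultures. In log2 units the difference was 0.25 ± 0.10 (SE) with CAF exosomes and 0.30 ± 0.10 with hOMF exosomes (adjusted p = 0.0834 and 0.0361). With hOMF exosomes the call was lost without any 1 of 5 libraries, namely hOMF exosome replicates 1 and 2, control replicates 1 and 3 and CAF exosome replicate 3 (adjusted p up to 0.188), and with CAF exosomes it was gained in 6 of 20 alternatives, the removal of hOMF exosome replicate 1 or 3 among them (adjusted p down to 0.0263).

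COL1A1 (chr17:50183289-50201632, GRCh38, minus strand) had 42.1, 44.1 and 43.6 CPM in CAF exosome cultures, 50.5, 40.0 and 39.4 CPM in hOMF exosome cultures and 39.4, 39.0 and 33.2 CPM in control cultures. All exosome libraries lay above the control libraries by a small margin. Over control, COL1A1 had a log2 fold change of 0.22 ± 0.10 (SE) with CAF exosomes and 0.22 ± 0.10 with hOMF exosomes (adjusted p = 0.138 and 0.124), and no alternative called it. COL1A2 (chr7:94394561-94431232, plus strand) had a log2 fold change of 0.09 ± 0.28 (SE) with CAF exosomes and 0.26 ± 0.27 with hOMF exosomes (adjusted p = 0.846 and 0.52), with 95% intervals of -0.49 to 0.68 and -0.31 to 0.83. COL5A1, which with COL5A2 nucleates collagen I fibrils, had 267, 220.3 and 267 CPM in CAF exosome cultures, 259.8, 249 and 228 CPM in hOMF exosome cultures and 259.6, 233 and 193 CPM in control cultures, with overlapping groups and a log2 fold change of 0.14 ± 0.10 (SE) with CAF exosomes and 0.10 ± 0.10 with hOMF exosomes (adjusted p = 0.36 and 0.499).

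COL16A1, a chain that binds at the surface of fibrils (a FACIT collagen), had 103, 93.5 and 111 CPM in CAF exosome cultures, 122, 109.7 and 95.6 CPM in hOMF exosome cultures and 85.4, 85.3 and 79.7 CPM in control cultures. The control libraries lay within 79.7 to 85.4 CPM, below all exosome libraries. Its log2 fold change was 0.30 ± 0.09 (SE) with CAF exosomes and 0.39 ± 0.09 with hOMF exosomes (adjusted p = 0.0329 and 0.00642). The hOMF exosome call held under all 20 alternatives, and the CAF exosome call was lost on leaving out any 1 control library, hOMF exosome replicate 2 or replicate 1 or 3 of the CAF exosome group (adjusted p up to 0.141). COL21A1, another FACIT chain, had 9.19, 8.68 and 11.8 CPM in CAF exosome cultures, 12.8, 11.5 and 12.8 CPM in hOMF exosome cultures and 8.73, 7.59 and 7.82 CPM in control cultures. The hOMF exosome libraries were all above the control libraries and the CAF exosome libraries overlapped them. COL21A1 had a log2 fold change of 0.30 ± 0.14 (SE) with CAF exosomes and 0.62 ± 0.14 with hOMF exosomes (adjusted p = 0.149 and 0.00436), and the call with hOMF exosomes held in all 20 alternatives. The FACIT chains COL9A2, COL9A3 and COL12A1 were not called. With hOMF exosomes COL9A2 was gained in 3 alternatives, the removal of hOMF exosome replicate 3 among them (adjusted p down to 0.00324), and COL9A3 in 4, the removal of CAF exosome replicate 1 or 2 among them (down to 0.0127).

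COL18A1 (chr21:45405137-45513720, plus strand) had 182, 192 and 202 CPM in CAF exosome cultures, 213, 201 and 183 CPM in hOMF exosome cultures and 153, 173 and 147 CPM in control cultures. All exosome libraries were above all control libraries, and the nearest values were 182 CPM in a CAF exosome library and 173 CPM in a control library. COL18A1 had a log2 fold change of 0.29 ± 0.08 (SE) with CAF exosomes and 0.34 ± 0.08 with hOMF exosomes (adjusted p = 0.0221 and 0.00734). The CAF exosome call was lost when control replicate 1 or 3 or CAF exosome replicate 3 was left out (adjusted p up to 0.0876). The folate carrier gene SLC19A1, which overlaps an exon of COL18A1 on the opposite strand, had a log2 fold change of -0.21 with CAF exosomes and of -0.59 with hOMF exosomes (adjusted p = 0.148 and 0.000727), opposite in sign to COL18A1. COL28A1, which has von Willebrand factor A domains like collagen VI, had 10.9, 10.2 and 11.1 CPM in CAF exosome cultures, 12.6, 10.4 and 11.5 CPM in hOMF exosome cultures and 7.45, 9.12 and 7.18 CPM in control cultures. The exosome libraries were all above the control libraries. In log2 units the change was 0.44 ± 0.13 (SE) with CAF exosomes and 0.54 ± 0.13 with hOMF exosomes (adjusted p = 0.0303 and 0.00809). The CAF exosome call was lost under DESeq2 and on leaving out replicate 1 or 3 of either the CAF exosome or the control group (adjusted p up to 0.11).

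COL7A1 had 263, 234 and 268 CPM in CAF exosome cultures, 287, 249.5 and 228 CPM in hOMF exosome cultures and 263, 287 and 234 CPM in control cultures. The groups overlapped, and the log2 fold change was -0.03 ± 0.09 (SE) with CAF exosomes and -0.04 ± 0.09 with hOMF exosomes (adjusted p = 0.835 and 0.823). Its 95% intervals, -0.23 to 0.17 with CAF exosomes and -0.23 to 0.16 with hOMF exosomes, exclude changes of the size of those of EFEMP1 or COL6A1. COL8A2, a short chain network collagen, and COL13A1, a transmembrane collagen, were tested at 0.474 and 0.848 FPKM and not called; COL13A1 with hOMF exosomes had a log2 fold change of 0.75 with a 95% interval of 0.10 to 1.39, and was called when only the 2 groups were fitted (adjusted p = 0.0478).

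No member was called between CAF and hOMF exosomes. Of all 12470 genes 2 were (0.016%), 1 higher and 1 lower (0.00802% each). An unadjusted p under 0.05 was found for 3 members, beside 947 of all 12470 genes. DESeq2, which gave an adjusted p for 17 of the 30 members, called none of them. The smallest adjusted p of the 30 was that of THBS1, 0.394, with a log2 fold change of CAF over hOMF exosomes of -0.26 ± 0.08 (SE) and every CAF exosome library below every hOMF exosome library. SPARC and EFEMP1 were above the hOMF exosome libraries in every CAF exosome library, with log2 differences of 0.13 (95% interval -0.05 to 0.32) and 0.12 (-0.03 to 0.26). In the other 27 members the groups overlapped, while over all genes 7.15% lay above and 6.59% below without overlap. For 21 of the 30 the whole 95% interval lay within 0.5 log2 units of 0, and over all 30 the bounds ran from -1.04 to 0.82, the widest being those of FBN1. The intervals were -0.43 to 0.15 for EFEMP2, -0.34 to 0.59 for LUM, -0.17 to 0.28 for COL6A1 and -0.21 to 0.21 for COL4A5. These results do not show that both kinds of exosome act alike.

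**Figure D5:**
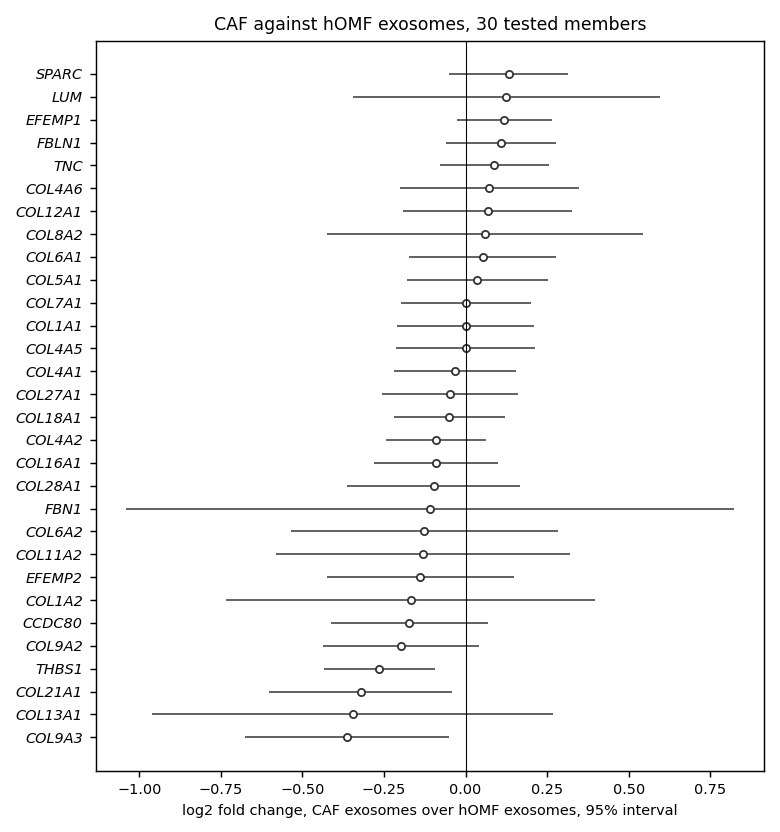
Log2 fold change of CAF over hOMF exosome cultures for the 30 tested members, with 95% intervals from edgeR. No gene has an adjusted p under 0.05, and the intervals run from -1.04 to 0.82; SPARC is at the top and COL9A3 at the bottom.

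The genes that fold, modify and export collagen were read in the same fit, from a list of 18 genes of which 16 were tested. With CAF exosomes 5 were higher and none lower (9.51% and 8.64% of all genes), with a median log2 fold change of 0.10, and with hOMF exosomes 4 were higher and 1 lower (11.8% and 11.4% of all genes), with a median of -0.02. P3H4, a partner of lysyl hydroxylase in collagen modification, had 8.83, 9.53 and 10.2 CPM in CAF exosome cultures, 7.29, 6.21 and 6.34 CPM in hOMF exosome cultures and 4.64, 4.43 and 3.75 CPM in control cultures. All exosome libraries exceeded all control libraries, and the CAF exosome libraries exceeded the hOMF exosome libraries. Its log2 fold change was 1.16 ± 0.15 (SE) with CAF exosomes and 0.63 ± 0.16 with hOMF exosomes (adjusted p = 0.00015 and 0.00877), and that of CAF over hOMF exosomes was 0.53 (adjusted p = 0.305). SERPINH1, the collagen chaperone HSP47, had 413, 421 and 393 CPM in CAF exosome cultures, 379, 328 and 312 CPM in hOMF exosome cultures and 316, 315 and 297 CPM in control cultures and a log2 fold change of 0.40 ± 0.08 (SE) with CAF exosomes and 0.14 ± 0.08 with hOMF exosomes (adjusted p = 0.00252 and 0.213). Its CAF exosome libraries lay above all others, and its hOMF and control libraries overlapped. The difference between both exosome groups was not called for SERPINH1 either (adjusted p = 0.367).

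MIA2 and MIA3, which load large cargo such as procollagen at exit sites of the endoplasmic reticulum, had log2 fold changes of 0.32 and 0.30 with CAF exosomes (adjusted p = 0.00559 and 0.0109) and of 0.24 and 0.30 with hOMF exosomes (adjusted p = 0.0199 and 0.00909). P3H1, a prolyl 3-hydroxylase, had a log2 fold change of 0.33 and 0.31 (adjusted p = 0.0147 with CAF and 0.0155 with hOMF exosomes). The gene called lower was PPIB, cyclophilin B, at a log2 fold change of -0.20 with hOMF exosomes (adjusted p = 0.0412). The most abundant gene of the list, P4HB, the beta subunit of prolyl 4-hydroxylase, was at 741 FPKM and was not called in either group. Without control replicate 3 the counts were 4 higher with CAF exosomes, and 2 higher and 1 lower with hOMF exosomes. Of all genes 5.91% were then higher with CAF exosomes, and 7.94% higher and 8.10% lower with hOMF exosomes.

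Of 13 genes that cleave procollagen or cross-link matrix, 10 were tested. TGM2, tissue transglutaminase, had 134, 132 and 138 CPM in CAF exosome cultures, 131, 131 and 127 CPM in hOMF exosome cultures and 187, 179 and 179 CPM in control cultures. All exosome libraries were below all control libraries, and the log2 fold change was -0.43 ± 0.06 (SE) with CAF exosomes and -0.49 ± 0.06 with hOMF exosomes (adjusted p = 0.000372 and 9.07e-05). LOXL2, a lysyl oxidase and the most abundant gene of the list at 148 FPKM, had a log2 fold change of -0.18 ± 0.07 (SE) with CAF exosomes and -0.23 ± 0.07 with hOMF exosomes (adjusted p = 0.0973 and 0.0336). LOXL1, a lysyl oxidase of elastic fibres, had a log2 fold change of 0.68 ± 0.26 (SE) with CAF exosomes and 0.81 ± 0.26 with hOMF exosomes (adjusted p = 0.083 and 0.0336) and was not called without control replicate 3 (adjusted p = 0.11 with hOMF exosomes). In all, 0 of the 10 were higher and 1 lower with CAF exosomes, where 18.2% of all genes were called, and 1 was higher and 2 lower with hOMF exosomes, where 23.2% were. Without control replicate 3 none was higher and 2 were lower in each exosome group. Of all genes 5.58% were then lower with CAF exosomes and 8.10% with hOMF exosomes.

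Of 21 receptors and uptake genes, 16 were tested; 1 was higher and 2 lower with CAF exosomes, and none was higher and 2 lower with hOMF exosomes. These are 18.8% and 12.5% of the 16, beside 18.2% and 23.2% of all genes called. Without control replicate 3 the count was 1 lower in each exosome group, beside 5.58% and 8.10% of all genes lower. SDC4, a heparan sulphate co-receptor for fibronectin, had 502, 464 and 422 CPM in CAF exosome cultures, 347, 335 and 349.7 CPM in hOMF exosome cultures and 633, 613 and 544 CPM in control cultures. The groups did not overlap, with hOMF exosome cultures lowest. Its log2 fold change was -0.37 ± 0.08 (SE) with CAF exosomes and -0.79 ± 0.08 with hOMF exosomes (adjusted p = 0.0052 and 1.24e-05), and that of CAF over hOMF exosomes was 0.43 (adjusted p = 0.0948; 0.0389 without control replicate 3). LAIR1, a collagen receptor of leukocytes, had 2.55, 3.23 and 2.02 CPM in CAF exosome cultures, 2.63, 2.40 and 2.04 CPM in hOMF exosome cultures and 2.99, 2.90 and 19.6 CPM in control cultures, so its calls, -1.73 ± 0.56 (SE) with CAF exosomes and -1.88 ± 0.57 with hOMF exosomes (adjusted p = 0.0417 and 0.0248), go with control replicate 3; without it they were -0.18 (adjusted p = 0.695) and -0.33 (adjusted p = 0.407). SDC1, another syndecan, was higher with CAF exosomes at a log2 fold change of 0.24 (adjusted p = 0.0347), and that call was lost without control replicate 3 (adjusted p = 0.113). DDR1, a receptor kinase for collagen and the most abundant of the list at 521 FPKM, was not called.

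Markers of other cell types were read for the same comparisons. Of 7 leukocyte markers 5 were tested, with 1 lower with CAF exosomes and 3 lower with hOMF exosomes, beside 8.64% and 11.4% of all genes. Without control replicate 3 the counts were 0 and 2, beside 5.58% and 8.10% of all genes lower. The call lost was that of CORO1A, an actin-binding protein of leukocytes, with 25 to 46 reads in the exosome libraries, 36 and 51 reads in control replicates 1 and 2 and 215 reads in control replicate 3. Over all 7 markers the summed level was 46.7 to 55.7 CPM in the exosome libraries, 54.1 and 51.8 CPM in control replicates 1 and 2 and 76.1 CPM in control replicate 3. Of 5 endothelial markers 3 were tested and 1 was lower in each exosome group, with and without that library. Of the 13 squamous markers 4 were higher and none lower with CAF exosomes, and 2 were higher and 1 lower with hOMF exosomes, beside 9.51% and 11.8% of all genes higher. Without control replicate 3 the counts were 3 higher, and 1 higher and 1 lower, beside 5.91% and 7.94% of all genes higher. The part of these differences in the changes of the matrix genes was not tested.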

How the data were processed

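Cal-27 RNA was sequenced in 9 libraries, 3 in each of 3 groups: poly(A) selection from 5 µg of total RNA and paired reads of 150 nt, per the labels' protocols. Per the file headers, the authors deposited expected counts, FPKM and TPM per gene and library. Bowtie2 2.2.5 and RSEM 1.2.8 are named in the submitters' processing notes, which give a mouse genome build although all symbols are human. The build behind the deposited expected counts is therefore uncertain, and similar genes share reads by estimate; the values of all 51 matrix genes were whole. TPM values deposited by the authors were used only for summed levels of lists of genes. The authors' 9 columns of group means were not used.

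Expected counts were rounded to whole numbers, filtered by filterByExpr (10 reads, 15 in total) and fitted in edgeR 4.0.16 (R 4.3.3) with group as the only term, TMM factors and a two-sided quasi-likelihood test. As alternatives, DESeq2 1.42.0 and limma 3.58.1 were run; limma was also run on log2(FPKM + 1) and log2(FPKM + 0.1) of the deposited FPKM; the others were library totals or DESeq2 size factors, other filters, only 2 groups, a GC and length correction, a replicate block and each library left out. In their deviations from group means, same-numbered libraries correlated at -0.15 to 0.14 and differently numbered ones at -0.14 to 0.18. These values show no pairing by replicate number but cannot exclude one. Intervals cover 95%; read floors of 3 counts cover counting error only.

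Coordinates are of GENCODE 29 (GRCh38) and were found for all 51 genes by symbol; promoter windows are of RefSeq (GRCh38.p14). The members and lists were chosen with earlier results of these data known. Genes were named by rule: members called in a comparison, members among the fibroblast markers, the most abundant member of each class, and chain partners. In related lists, up to 3 called genes of smallest p per comparison and the most abundant gene were named. THBS1, COL23A1, ELANE, PTPRC, MUS81, SLC19A1, COL9A2, COL9A3, COL12A1, S100A4 and CORO1A lie outside this rule and were chosen after their values were seen. The same holds for VIM, ACTA2 and PPIB.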

Additional observations from a re-analysis of the deposited data

How the results depend on the processing

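Under the 20 alternatives, no result changed sign while called. Of the log2 fold changes of the 30 tested members recomputed under them, 1698 kept their side of the threshold, 56 lost a call and 33 gained one. The calls of EFEMP1, EFEMP2, CCDC80, COL6A1 and COL4A5 held throughout in both exosome groups, those of SPARC and LUM with CAF exosomes, and those of COL18A1, COL16A1, COL21A1 and COL28A1 with hOMF exosomes. Leaving out 1 library gave 7 to 13 members higher with CAF exosomes, 10 to 16 higher and 0 or 1 lower with hOMF exosomes, and 1343 to 2389, 1695 to 3096 and 0 to 8 of all genes called for CAF exosomes over control, hOMF exosomes over control and CAF over hOMF exosomes. In these fits 5.91% to 10.3% of all genes were higher with CAF exosomes and 7.04% to 12.8% with hOMF exosomes. The call of TNC with hOMF exosomes, the 1 member lower, was 0 with library totals, with limma on log2(FPKM + 1) and log2(FPKM + 0.1), and with the replicate block. Between CAF and hOMF exosomes, the 2 genes called of all tested became 56 with DESeq2, 19 with the GC and length correction and 0 with library totals, limma-voom, limma on either FPKM scale or only the 2 groups compared; the cause was not tested. The replicate block gave 11 members higher with CAF exosomes and 14 with hOMF exosomes, and 2101, 2718 and 2 genes in all. It also ended the call of COL6A2 with CAF exosomes. DESeq2 called 9 and 13 members higher with CAF and hOMF exosomes, beside 7.46% and 8.66% of all genes higher. The GC and length correction called 15 and 19 members higher, beside 12.2% and 14.3% of all genes higher. Higher and lower together, DESeq2 called 15.2% and 19.1% of all genes, and the correction 25.1% and 29.7%. Of the 51 members, 17 had fewer than 5 reads in every library, and changes within that range were not detectable at this depth.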
